A study of Mus musculus with 16 samples.

Results

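RNA-seq of cultured mouse bone marrow stromal cells (BMSC) was compared between 8 libraries, 4 made from Dmp1KO/Fgf23cKO cultures and 4 from WT cultures, out of 16 libraries of 4 genotypes. The libraries were chosen by their genotype labels, with all libraries of both genotypes taken. Dmp1KO/Fgf23cKO cells carry the Dmp1 null allele on both chromosomes in every cell, together with loxP-flanked Fgf23 alleles and the Dmp1-cre transgene, and are the compound mutant of the study. WT cells have intact Dmp1, carry the same loxP-flanked Fgf23 alleles and lack the transgene. The floxed Fgf23 background is therefore shared, whereas Cre and the Dmp1 deletion are not, and an effect of Cre alone cannot be told apart from the deletions. Dmp1-cre is active in late osteoblasts and osteocytes, so Fgf23 is removed only in the cells of the culture that have reached that stage. Per the study's methods the donors were male C57BL/6J littermates at 12 weeks of age. Adherent marrow cells were cultured over 21 days in osteogenic medium (ascorbic acid at 50 µg/ml, beta-glycerophosphate at 10 mM), which supports mineralization. The study reports reduced alizarin red staining of mineral in cultures lacking Dmp1 alone, and similar staining in the compound mutant. Fewer mice per genotype than libraries are described, so libraries may share an animal, and the p-values measure only the spread between these libraries, which may be technical.

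The product of Dmp1, dentin matrix protein 1, is an acidic phosphoprotein that osteocytes secrete into the bone matrix, where it takes part in mineralization and in osteocyte maturation. Fgf23 encodes fibroblast growth factor 23, a hormone made chiefly by osteocytes, which lowers renal phosphate reabsorption and vitamin D activation through FGF receptors with Klotho as co-receptor. Loss of DMP1 raises FGF23 in mice and in people and causes hypophosphatemic rickets. Deleting Fgf23 on the Dmp1-null background asks which features of Dmp1-null osteogenic cells remain once the FGF23 excess is taken away.

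The 8 libraries held between 61.9 M and 79.5 M counts (M, mega), and 15894 genes passed the filter on low counts and were tested. No pair of libraries within a genotype agreed within sampling noise, so none was treated as a repeat of another and each counted as 1 replicate. Cultures that share an animal could differ as much, so this check does not show independent animals. Levels are given as CPM (counts per 1 M counts after TMM scaling of the library totals), in library order 1 to 4, and genes with an adjusted p below 0.05 in the edgeR quasi-likelihood test were called.

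Both targeted transcripts were low in every compound mutant library. Dmp1 (Entrez 13406, chromosome 5, 104197575 to 104214102, mm10) stood at 41.7, 44.4, 95.03 and 98.5 CPM in the Dmp1KO/Fgf23cKO libraries, against 801, 374, 333 and 547 CPM in the WT libraries. It fell by 2.88 ± 0.41 (SE) on the log2 scale (adjusted p = 0.00776). The remaining Dmp1 reads were not zero, and a gene-level count does not say from which exons they came. Fgf23 (Entrez 64654, chromosome 6, 127072902 to 127082296, mm10) had 4, 8, 2 and 4 reads in the Dmp1KO/Fgf23cKO libraries, against 48, 64, 66 and 85 reads in the WT libraries. As levels these were 0.0484, 0.102, 0.0298 and 0.070 CPM, against 0.647, 0.787, 0.787 and 1.11 CPM in WT, a fall by 3.70 ± 0.42 (SE) on the log2 scale (adjusted p = 0.003398). For both genes the 4 compound mutant libraries lay below every WT library, and both calls held on leaving out any 1 library. Among the mutant libraries the higher Dmp1 levels were in libraries 3 and 4, and their range of 1.24 on the log2 scale was close to the 1.27 of the WT libraries.

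The compound mutant libraries were not alike. On the first principal component of the 8 libraries (52.9% of the variance), Dmp1KO/Fgf23cKO libraries 3 and 4 had scores of 86.2 and 72.0, and libraries 1 and 2 had scores of -16.3 and -23.0, beside scores of -35.5 to -19.2 in the WT libraries. On the second component (13.5%) libraries 1 and 2 lay highest, at 35.97 and 40.2, libraries 3 and 4 at -7.52 and 2.14, and the WT libraries between -24.8 and -10.8. All 4 mutant libraries therefore lay above WT on the second component, library 3 only narrowly (-7.52, against at most -10.8 in WT). Libraries 3 and 4 lay far above WT on the first. Among 10659 genes with a mean of at least 5 CPM, library 3 had 293 genes at least 2-fold above the WT range and 397 at least 2-fold below it (6.47% of genes), and library 4 had 222 and 258 (4.50%). Library 1 had 38 and 16 such genes (0.507%) and library 2 had 35 and 21 (0.525%). A WT library set against the range of the other 3 gave between 0.0188% and 0.328%. The biological coefficient of variation, the replicate scatter of a gene beyond counting error, was 0.337 in Dmp1KO/Fgf23cKO, against 0.173 in WT, and it was 0.212 in Dmp1KO and 0.182 in Fgf23cKO. The 20 most abundant genes took 18.4%, 19.0%, 30.8% and 27.2% of the counts in the Dmp1KO/Fgf23cKO libraries, against 18.7% to 21.3% in the WT libraries. Library 4 was also the shallowest, at 61.9 M counts. The labels give no batch, date or animal that separates libraries 1 and 2 from 3 and 4, and the part of any such factor was not tested.

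**Figure D1:**
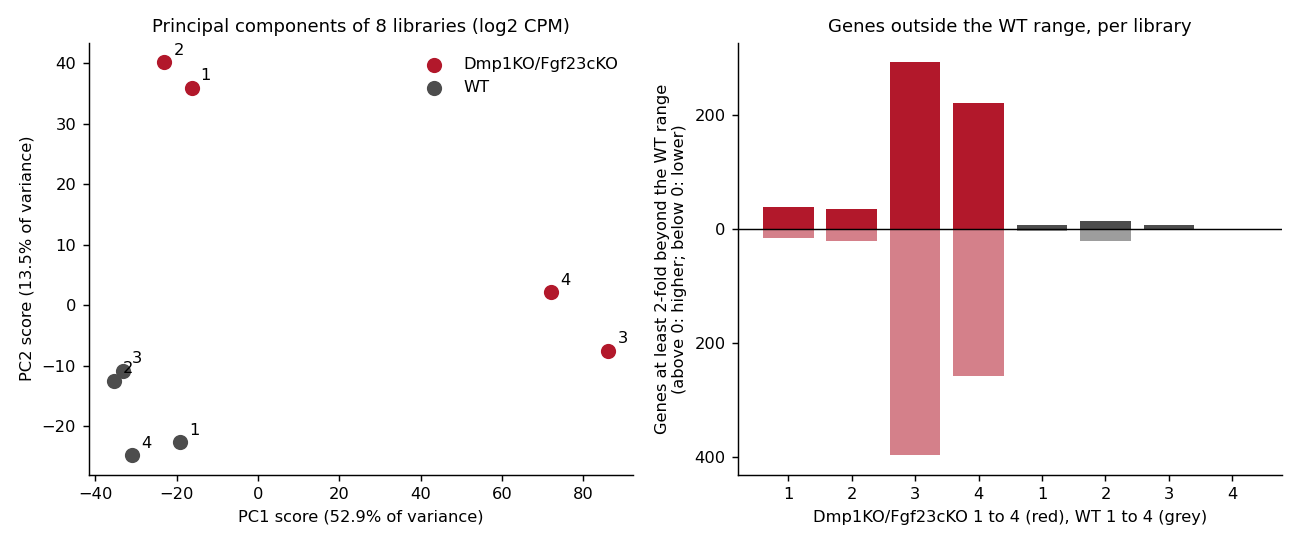
Left, scores of the 8 libraries on the first (x) and second (y) principal components of log2 CPM, with Dmp1KO/Fgf23cKO in red, WT in grey and the library number beside each point. Right, number of genes (y) at least 2-fold above (bars up) or below (pale bars down) the WT range in each library (x), where each WT library is set against the other 3. Dmp1KO/Fgf23cKO libraries 3 and 4 lie far from the rest on the first component and hold most of the outlying genes, 293 and 397 in library 3, against 38 and 16 in library 1.

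Because of this division, the genes were described in 2 classes. Genes that moved in all 4 compound mutant libraries were called by the test over the 8 libraries and had every mutant level on 1 side of every WT level. Genes that differed among the compound mutant libraries had a range of at least 4-fold over these 4 libraries and of at most 2-fold over the WT libraries. The test called 1201 genes (7.56% of those tested), 888 higher (5.59%) and 313 lower (1.97%) in Dmp1KO/Fgf23cKO. Of these, 887 lay above WT in all 4 libraries (5.58%) and 312 below it in all 4 (1.96%). At least 2-fold changes made up 125 of the higher and 87 of the lower genes. A further 933 genes lay above and 921 below WT in all 4 libraries without passing the test. The differing class held 696 genes (4.38%), of which 690 were not called.

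The counts depended on single libraries. Leaving out 1 WT library at a time left between 305 and 435 genes called, the fewest without WT library 4. Without compound mutant library 3 or 4 there were 610 and 511 calls, and without library 1 or 2 there were 1453 and 1860. Without both libraries 3 and 4, an alternative chosen after seeing the data, 1306 genes were called, among them 758 of the 1199 genes that moved in all 4. A total of 289 of these 1199 genes were called whichever 1 library was left out, 241 higher and 48 lower.

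The genes that moved most evenly in the 4 compound mutant libraries included several that encode small proteins of the mitochondrial inner membrane. Ndufb7, an accessory subunit of complex I, had 18.5, 19.1, 20.1 and 19.9 CPM in the Dmp1KO/Fgf23cKO libraries, against 6.21, 6.76, 6.56 and 5.93 CPM in the WT libraries (log2 fold change 1.61 ± 0.077 SE, adjusted p = 0.00011). Cox6c, a subunit of cytochrome c oxidase, had 42.5, 45.1, 43.3 and 44.7 CPM in the mutant libraries, against 15.3, 18.5, 19.4 and 17.98 CPM in WT (log2 fold change 1.30 ± 0.082 SE, adjusted p = 0.000251). In both genes the mutant libraries differed from each other by far less than they differed from WT. The ATP synthase subunits Atp5j and Atp5j2 rose likewise, by 1.34 ± 0.074 and 1.15 ± 0.060 (SE) on the log2 scale (adjusted p = 0.000149 and 0.000148). In a list of 28 nuclear-encoded respiratory chain genes, 11 were higher in all 4 mutant libraries and none was lower, beside 5.58% and 1.96% of all genes. Of the 11 calls 5 (Ndufa2, Ndufb3, Cox4i1, Cox5b and Cox6c) held on leaving out any 1 library, beside 289 of the 1199 genes that moved in all 4. On the deposited log2 values limma called 3 of the 28 genes, beside 2.0% of all genes. The median log2 fold change of the list was 0.30, beside 0.01 over all genes tested, and its median difference from the WT mean was 0.23, 0.17, 0.39 and 0.36 in Dmp1KO/Fgf23cKO libraries 1 to 4. Cox4i1 (0.75 ± 0.057 SE, adjusted p = 0.0007199) and Cox5b (0.64 ± 0.062 SE, adjusted p = 0.00201) passed. The core subunits Ndufs1, Uqcrc2 and Atp5a1, picked after their values were seen, had log2 fold changes of 0.03, -0.02 and 0.09 and did not. Ndufs8, a core complex I subunit outside the list, was higher in all 4 libraries (0.66 ± 0.069 SE, adjusted p = 0.00268). Its call held on leaving out any 1 library.

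Short transcripts were a minority of the genes that rose, but a larger share of them than of all genes. Of the 874 genes higher in all 4 libraries with an annotated exon length, 67 (7.67%) were under 1000 bases, and of the 296 lower genes 3 (1.01%) were, beside 3.62% of all genes tested. The median exon length was 3035 bases in the higher genes and 5741 bases in the lower genes, beside 4229 bases over all genes. Of 64 histone genes tested 10 were higher in all 4 libraries and none lower, beside 5.58% and 1.96% of all genes. This comparison was chosen after the values were seen, and is a description with no test.

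The largest rises that held in all 4 libraries were in genes of varied function. Rab6b, which encodes a Golgi-associated small GTPase known chiefly from neurons, had 14.7, 13.9, 13.8 and 17.1 CPM in the Dmp1KO/Fgf23cKO libraries, against 1.9, 0.922, 1.18 and 1.38 CPM in the WT libraries (log2 fold change 3.47 ± 0.22 SE, adjusted p = 0.000261). Pdcd5, which encodes a small protein linked to programmed cell death, had 15.8, 15.7, 16.4 and 16.4 CPM in the mutant libraries, against 3.301, 3.54, 3.42 and 3.78 CPM in WT, and had the smallest adjusted p of the named genes (2.19 ± 0.082 SE, adjusted p = 2.80e-05). Each of these genes lay in a band of mutant levels that no WT library approached. Cetn3, a centrin of the centrosome, rose by 1.80 ± 0.098 (SE, adjusted p = 0.000149) and Edf1, a small coactivator that also binds ribosomes, by 1.22 ± 0.076 (SE, adjusted p = 0.000251) on the log2 scale. The zinc finger gene Zfp984 (2.86 ± 0.17 SE, adjusted p = 0.000211) and the histone gene Hist4h4 (1.67 ± 0.13 SE, adjusted p = 0.0007199) rose as well, but both have near-identical copies in the mouse genome, so their counts are uncertain. The calls of these 6 genes held on leaving out any 1 library. Cadps2, a regulator of vesicle release, had 6.27, 12.1, 10.9 and 24.4 CPM in the mutant libraries, against 4.26, 2.497, 1.36 and 2.31 CPM in WT (2.36 ± 0.48 SE, adjusted p = 0.0254). Its call was lost without WT library 2, 3 or 4, with an adjusted p of at most 0.0956. Hpse, which encodes the heparan sulfate-cleaving enzyme heparanase, had 55.1, 26.2, 36.98 and 57.3 CPM in the mutant libraries, against 16.5, 16.4, 13.02 and 11.2 CPM in WT (1.62 ± 0.26 SE, adjusted p = 0.0116), with an adjusted p of 0.05, no longer under the threshold, without WT library 4. Rgs1, a regulator of G protein signaling in leukocytes, had 11.98, 11.1, 26.3 and 25.2 CPM in the mutant libraries, against 5.91, 4.58, 5.96 and 5.02 CPM in WT (1.80 ± 0.31 SE, adjusted p = 0.0147), and lost its call without WT library 1, 2 or 4 (at most 0.0648).

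**Figure D2:**
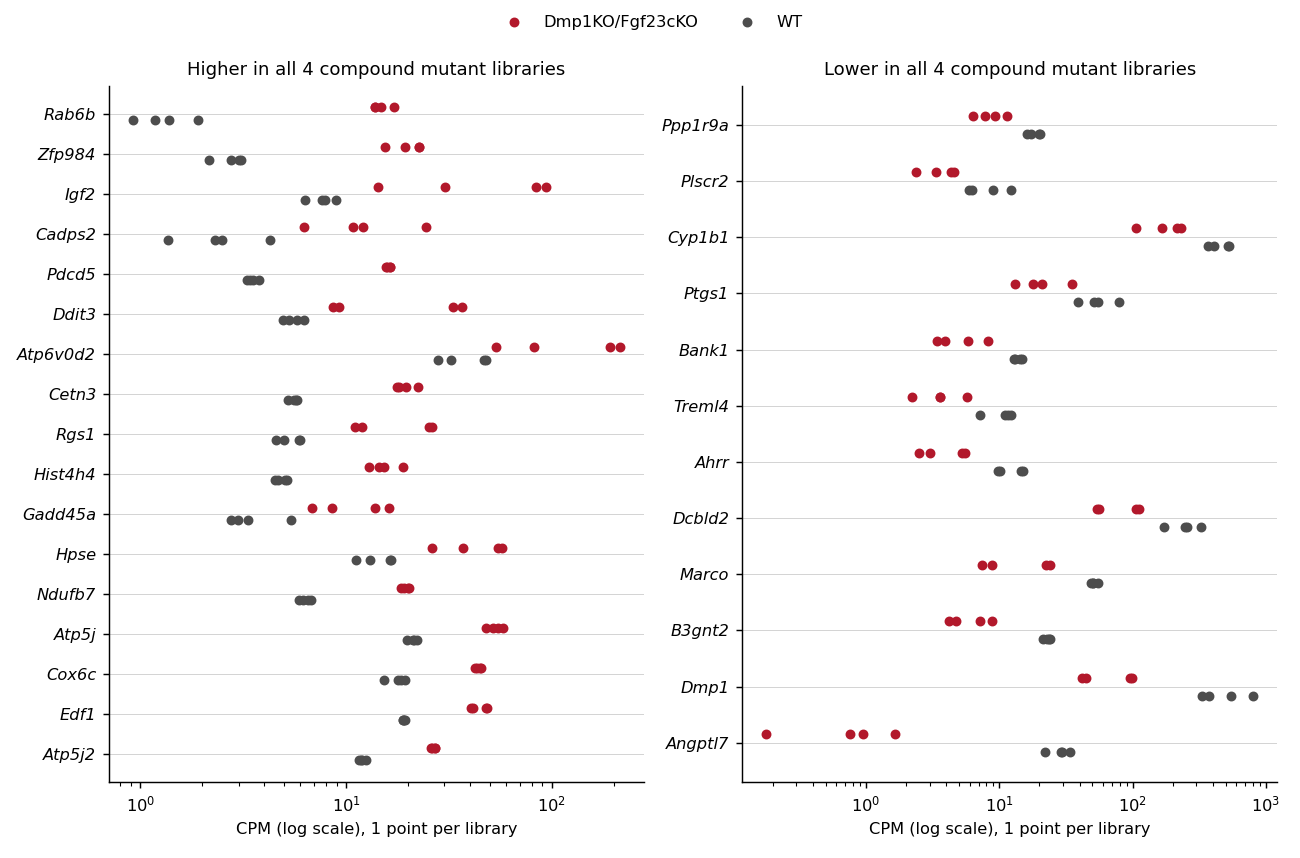
CPM on a log axis (x) of genes (y) that moved in all 4 Dmp1KO/Fgf23cKO libraries, 1 point per library, Dmp1KO/Fgf23cKO in red above WT in grey. On the left are the 12 largest rises and the genes with the smallest adjusted p, and on the right the 12 largest falls. In every gene shown the red and grey points do not overlap, with Pdcd5 at 15.7 to 16.4 CPM in Dmp1KO/Fgf23cKO, against 3.30 to 3.78 CPM in WT.

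Chaperones of the endoplasmic reticulum, which fold secreted proteins, were called higher in 11 of 20 tested genes, all 11 in all 4 mutant libraries, and lower in none, beside 5.58% and 1.96% of all genes. Of these 11 calls 3 (Hspa5, Dnajb11 and Pdia6) held on leaving out any 1 library, beside 289 of the 1199 genes that moved in all 4. On the deposited log2 values limma called 4 of the 20 genes, beside 2.0% of all genes. The median difference from the WT mean was 0.20, 0.24, 0.40 and 0.31 on the log2 scale in Dmp1KO/Fgf23cKO libraries 1 to 4, and lay between -0.02 and 0.02 in the WT libraries. Hspa5, the chaperone BiP, had 603, 683, 693 and 690.3 CPM in the mutant libraries, against 448, 444, 470.4 and 443 CPM in WT (0.56 ± 0.073 SE, adjusted p = 0.00524). Dnajb11, a BiP co-chaperone, had 89.3, 90.4, 105 and 98.6 CPM in the mutant libraries, against 61.9, 59.6, 63.97 and 57.5 CPM in WT (0.66 ± 0.071 SE, adjusted p = 0.002795). Library 1 was the lowest of the mutant libraries in both genes and still lay above every WT library. The disulfide isomerase Pdia6 rose by 0.39 ± 0.055 (SE, adjusted p = 0.00683). A pair of genes that handle collagen or its degradation also rose in all 4. Timp1, an inhibitor of matrix metalloproteinases, had 863, 1028, 919 and 1056 CPM in the mutant libraries, against 541, 526, 508 and 512 CPM in WT (0.89 ± 0.086 SE, adjusted p = 0.00201). Plod1, a lysyl hydroxylase of collagen, had 169, 182, 189.9 and 189.7 CPM in the mutant libraries, against 123, 107, 102 and 109.6 CPM in WT (0.73 ± 0.075 SE, adjusted p = 0.00268). They were the only members that passed among 19 matrix protease and inhibitor genes and 22 genes of collagen folding and crosslinking, a share near that of all genes (5.26% and 4.55%, beside 5.58%), and no member of either list was called lower.

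Fewer genes fell in all 4 libraries. Angptl7, a secreted angiopoietin-like factor, had 1.66, 0.952, 0.179 and 0.753 CPM in the Dmp1KO/Fgf23cKO libraries, against 29.2, 21.9, 33.8 and 29.6 CPM in the WT libraries, and fell by 4.99 ± 0.53 (SE) on the log2 scale (adjusted p = 0.00299). Its mutant levels spanned a wide range, with library 3 the lowest and library 1 the highest, and all lay far below the lowest WT level. B3gnt2, a glycosyltransferase that builds polylactosamine chains, had 4.77, 8.76, 4.23 and 7.14 CPM in the mutant libraries, against 21.3, 23.5, 24.2 and 22.9 CPM in WT, and fell by 1.88 ± 0.22 (SE, adjusted p = 0.00376). Rrm2, the ribonucleotide reductase subunit expressed in dividing cells, was the only one of 20 cell cycle genes to pass, beside 7.56% of all genes. It had 24.8, 20.9, 22.96 and 23.2 CPM in the mutant libraries, against 36.99, 36.4, 45.6 and 46.9 CPM in WT (fell by 0.85 ± 0.10 SE, adjusted p = 0.00423). These calls held on leaving out any 1 library. Other falls were lost on leaving out single libraries. Cyp1b1, a cytochrome P450 induced by the aryl hydrocarbon receptor, had 214, 231, 107 and 166 CPM in the mutant libraries, against 405, 366, 531 and 522 CPM in WT (fell by 1.35 ± 0.24 SE, adjusted p = 0.01702), and Ahrr, a repressor of that receptor, had 3.002, 5.51, 2.52 and 5.23 CPM in the mutant libraries, against 9.84, 10.1, 15.1 and 14.6 CPM in WT (fell by 1.61 ± 0.29 SE, adjusted p = 0.0164). Both were lost without WT library 3 or 4, and Cyp1b1 also without mutant library 4, with adjusted p of at most 0.0660. Dcbld2, a transmembrane receptor, had 107, 112, 55.9 and 54.4 CPM in the mutant libraries, against 171, 328, 257 and 248 CPM in WT (fell by 1.61 ± 0.30 SE, adjusted p = 0.0194), and Ptgs1, cyclooxygenase 1, had 20.96, 35.3, 13.1 and 17.8 CPM in the mutant libraries, against 38.7, 78.4, 54.6 and 51.6 CPM in WT (fell by 1.36 ± 0.32 SE, adjusted p = 0.04304). The call of Dcbld2 was lost without mutant library 4 or WT library 2, 3 or 4 (adjusted p of at most 0.0660). The calls of Ptgs1 and of Plscr2, a phospholipid scramblase (-1.20 ± 0.29 SE, adjusted p = 0.0432), held only without mutant library 2, and otherwise reached an adjusted p of at most 0.116. Ppp1r9a, the actin-binding protein neurabin, had a log2 fold change of -1.07 ± 0.18 (SE, adjusted p = 0.01195), with 0.0512 without WT library 4.

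Some of the genes that fell in all 4 libraries belong to leukocytes. In bulk RNA, fewer cells of a type and less RNA per cell cannot be told apart. Marco, a scavenger receptor of macrophages, had 23.9, 22.5, 8.78 and 7.42 CPM in the Dmp1KO/Fgf23cKO libraries, against 50.1, 49.04, 54.8 and 50.6 CPM in the WT libraries (fell by 1.70 ± 0.38 SE, adjusted p = 0.0355). Its fall was deeper in libraries 3 and 4 than in 1 and 2, and the call was lost without mutant library 3 or 4 or any 1 WT library (adjusted p of at most 0.101). Treml4, a myeloid receptor, and Bank1, a B cell scaffold protein, fell by 1.47 ± 0.29 and 1.36 ± 0.26 (SE, adjusted p = 0.0226 and 0.0209). The pan-macrophage gene Cd68 went the other way, with 432, 448, 379 and 402 CPM in the mutant libraries, against 304, 284, 327 and 322 CPM in WT (0.43 ± 0.080 SE, adjusted p = 0.0188). Of 19 macrophage markers 1 was higher and 1 lower in all 4 libraries (5.26% each, beside 5.58% and 1.96% of all genes). Their summed level was 11680, 14270, 7013 and 8912 CPM in Dmp1KO/Fgf23cKO, against 10470 to 11620 CPM in WT. The calls of Bank1 and Cd68 were lost without any 1 WT library and that of Treml4 without WT library 1, 3 or 4, and those of Bank1 and Treml4 also without mutant library 4, with adjusted p of at most 0.0802.

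Several genes that moved in all 4 compound mutant libraries also stood away from WT in the single mutants of the series, which are given here as levels only, since those comparisons share the WT libraries. Fgf23 itself had 6.32, 3.61, 1.703 and 3.54 CPM in Dmp1KO and 0.0131, 0.0414, 0.0142 and 0.0569 CPM in Fgf23cKO, so the compound mutant lacked the high level of Dmp1KO. Pdcd5 had 16.2, 15.7, 20.9 and 15.3 CPM in Dmp1KO and 9.03, 12.3, 11.03 and 16.3 CPM in Fgf23cKO. Ndufb7 had 21.2, 19.99, 26.5 and 20.99 CPM in Dmp1KO and 13.1, 22.2, 15.1 and 19.2 CPM in Fgf23cKO, and Zfp984 had 18.3, 19.8, 11.99 and 11.2 CPM in Dmp1KO and 13.96, 17.2, 14.6 and 16.6 CPM in Fgf23cKO. B3gnt2 had 5.21, 3.43, 5.14 and 3.93 CPM in Dmp1KO and 8.67, 2.57, 3.84 and 4.77 CPM in Fgf23cKO. For these 4 genes every library of the 3 mutant genotypes lay on the same side of the 4 WT libraries. So it was for Rab6b, Cetn3, Cox6c, Atp5j, Atp5j2, Edf1, Hist4h4 and Angptl7, so these changes were not particular to the compound mutant. It was not so for every named gene. Marco had 96.9, 73.2, 66.2 and 151 CPM in Fgf23cKO, above every WT library. Trib3 and Igf2, of the differing class, showed another order. Trib3 had 59.7, 91.7, 104 and 98.5 CPM in Dmp1KO, which is near Dmp1KO/Fgf23cKO libraries 3 and 4, and 13.5, 4.46, 3.999 and 8.08 CPM in Fgf23cKO, which is nearer to libraries 1 and 2. Igf2 had 60.4, 65.97, 91.1 and 109 CPM in Dmp1KO and 9.22, 6.34, 22.6 and 10.01 CPM in Fgf23cKO. Bglap (osteocalcin), whose WT levels ranged too widely for that class, had 928, 613, 872 and 722 CPM in Dmp1KO and 399, 335, 395 and 455 CPM in Fgf23cKO. In the same count of genes at least 2-fold beyond the WT range, the Dmp1KO libraries reached 3.94% to 4.96% of genes and the Fgf23cKO libraries 0.582% to 1.30%.

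**Figure D3:**
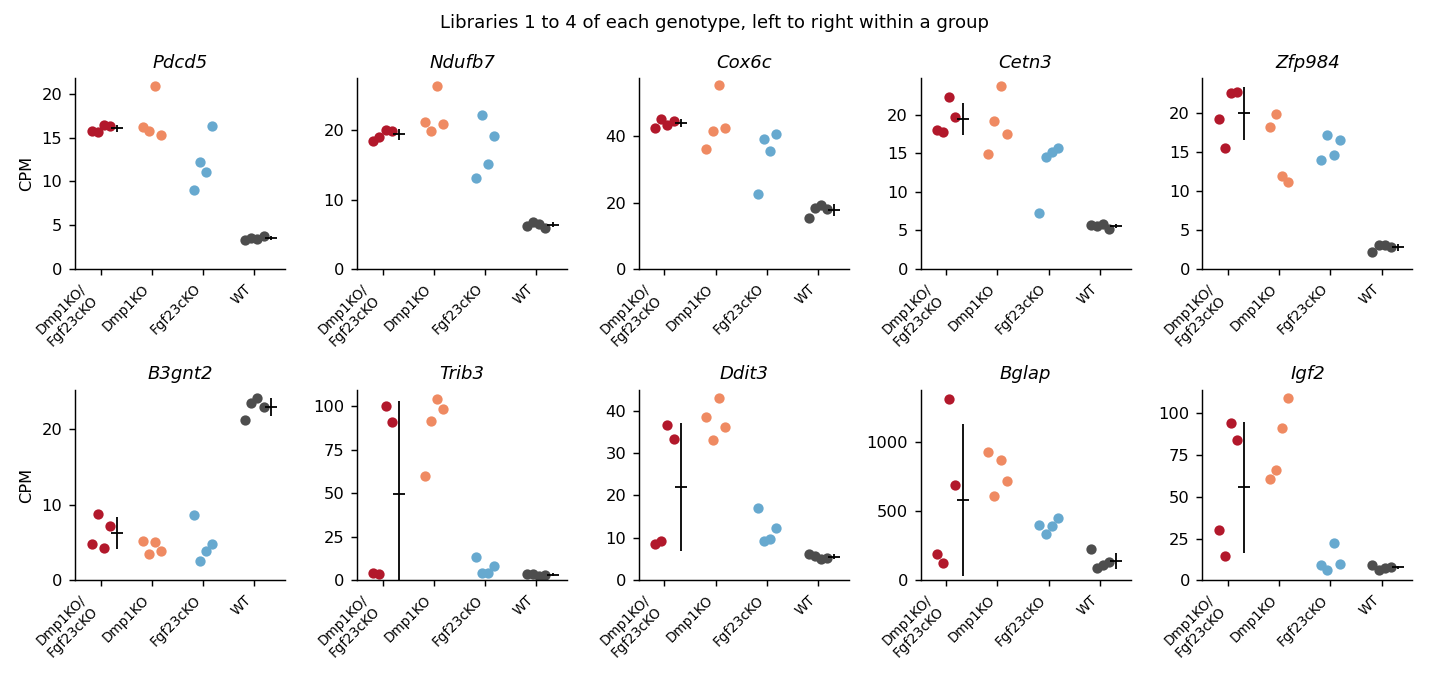
CPM (y) of 10 genes in the 4 libraries of each genotype (x), libraries 1 to 4 from left to right within a group. The black bar beside Dmp1KO/Fgf23cKO and WT is the mean with its SD (n = 4), drawn down to 0 at most. Pdcd5, Ndufb7, Cox6c, Cetn3 and Zfp984 are even in the 4 Dmp1KO/Fgf23cKO libraries, whereas Trib3 is at 4.27 and 3.81 CPM in libraries 1 and 2 and at 100.1 and 90.8 CPM in libraries 3 and 4.

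Genes near the targeted loci were counted against the rest of the genome. Within 5 Mb of Fgf23 on chromosome 6, 13 of 111 tested genes were called (11.7%, 11 higher and 2 lower), and within 5 Mb of Dmp1 on chromosome 5, 5 of 79 (6.33%), beside 7.57% of all genes with a position. Over whole chromosomes the share ran between 5.13% and 10.2%, with chromosome 5 at the top. Apobec1, an RNA-editing enzyme 4.49 Mb from Fgf23, had 154, 228, 204 and 232 CPM in the Dmp1KO/Fgf23cKO libraries, against 75.9, 78.3, 75.7 and 80.3 CPM in the WT libraries (1.40 ± 0.12 SE, adjusted p = 0.00166). This gene was picked after its values were seen. These counts are a description with no test.

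The 696 differing genes mostly followed the division of the libraries. In 407 of them (58.5%) libraries 1 and 2 were the 2 highest of the 4, in 182 (26.1%) libraries 3 and 4 were, and each of the 4 other pairs led in between 21 and 33 genes. Since all genes of a library share its RNA, these shares are a description and not independent counts. Relative to WT, 224 genes of at least 5 CPM lay at least 2-fold below the WT range in libraries 3 and 4 alone, and 163 lay at least 2-fold above it in these libraries alone. Library 3 alone was outside for a further 157 lower and 97 higher genes. The same position in all 4 libraries was rarer, with 16 genes at least 2-fold above and 6 at least 2-fold below WT in every mutant library. Opposite positions were rare. Sost and Gpr141 were the 2 genes at least 2-fold below WT in libraries 1 and 2 and at least 2-fold above it in libraries 3 and 4, and Gm1045 was the 1 gene with the reverse order.

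The widest ranges were in genes that were very low or very high in libraries 3 and 4. Serpinb2, plasminogen activator inhibitor 2, had 666, 1327, 18.1 and 62.3 CPM in the Dmp1KO/Fgf23cKO libraries, against 467, 374, 599 and 617 CPM in the WT libraries. Lum, the collagen-binding proteoglycan lumican, had 82.7, 22.2, 1.52 and 1.91 CPM in the mutant libraries, against 67.3, 53.97, 55.5 and 44.2 CPM in WT. Il1rl1, the receptor for interleukin 33, had 30.4, 16.9, 0.476 and 1.37 CPM in the mutant libraries, against 5.96, 7.61, 8.59 and 5.395 CPM in WT. Libraries 3 and 4 lay below every WT library in these genes, while library 1 lay above WT in all of them. Csgalnact1, which starts chondroitin sulfate chains, had 49.2, 40.2, 2.66 and 3.38 CPM in the mutant libraries, against 35.1, 40.3, 39.8 and 37.1 CPM in WT. Vsig4, a complement receptor of macrophages, had 27.4, 52.8, 1.58 and 2.91 CPM in the mutant libraries, against 66.1, 91.2, 51.9 and 70.9 CPM in WT. The opposite was seen in Cdsn, which encodes the adhesion protein corneodesmosin of skin, with 10.8, 10.2, 310.3 and 336 CPM in the mutant libraries, against 12.8, 7.21, 6.94 and 11.8 CPM in WT. Pgm5, a cytoskeletal relative of phosphoglucomutase, had 4.55, 3.35, 54.7 and 69.01 CPM in the mutant libraries, against 2.897, 1.85, 2.24 and 2.24 CPM in WT, and Col22a1, a collagen of tissue junctions, had 30.1, 21.7, 366 and 173 CPM in the mutant libraries, against 51.5, 36.9, 30.4 and 44.5 CPM in WT. Pgm5 was above every WT library in all 4, and the other genes were not on 1 side of WT. None of these genes was called over the 4 libraries, with adjusted p between 0.0546 and 0.995, although Cdsn and Pgm5 passed without mutant library 1 or 2. Aqp5, an aquaporin, was low in all 4 libraries with 3.12, 2.501, 0.0893 and 0 CPM, against 10.5, 7.36, 10.1 and 9.63 CPM in WT, and did not pass either (adjusted p = 0.164). Igf2, Ddit3, Atp6v0d2, Angptl7, Cd1d2 and Prr32 were the 6 genes that belonged to both classes.

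**Figure D4:**
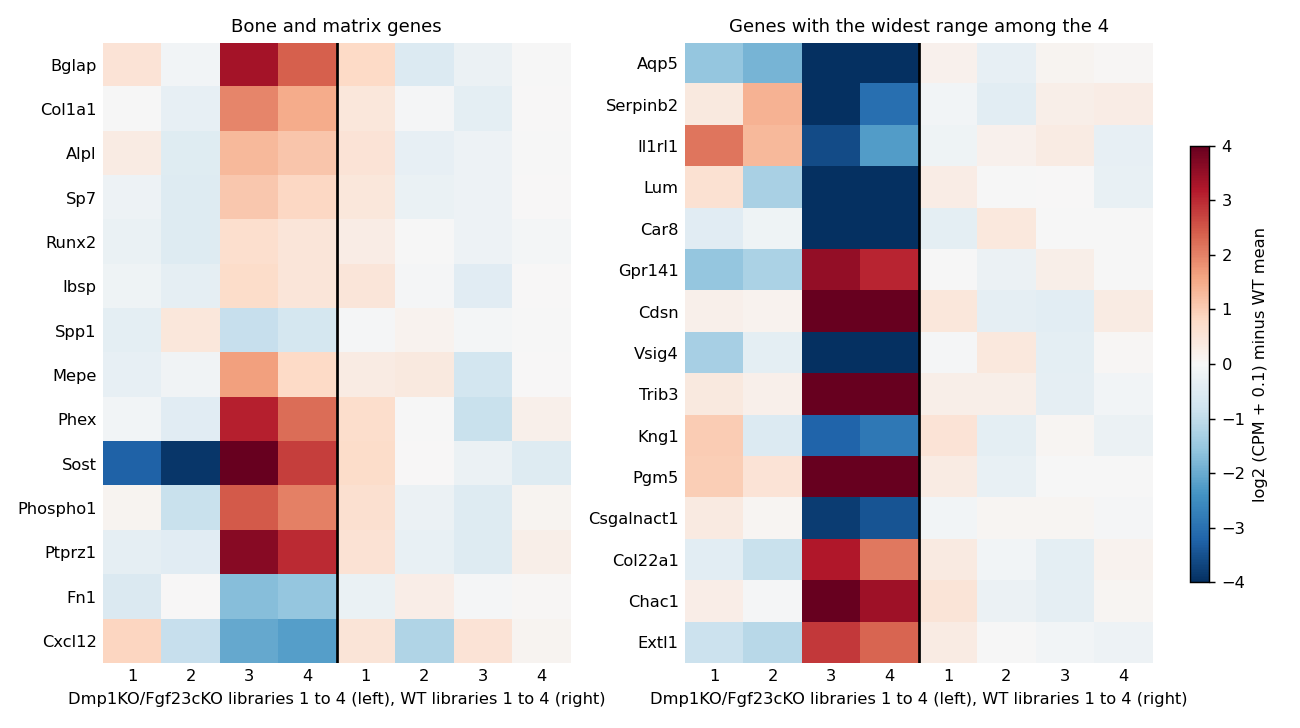
Difference of log2 (CPM + 0.1) from the WT mean (colour, red higher and blue lower, saturating at 4 in either direction) for bone and matrix genes (left) and named genes with the widest range among the compound mutant libraries (right), genes in rows and libraries in columns, Dmp1KO/Fgf23cKO 1 to 4 left of WT 1 to 4. Columns 3 and 4 are strongly coloured in most genes, and columns 1 and 2 are close to WT except for a few genes such as Sost, at 0.0968 and 0.0254 CPM there.

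The median levels of osteoblast and osteocyte genes were above WT in libraries 3 and 4. None of 22 osteoblast and 12 osteocyte markers was called by edgeR. At an unadjusted p under 0.05 there were 3 osteoblast and 3 osteocyte markers (13.6% and 25.0%, beside 25.9% of all genes). DESeq2 called 2 osteoblast and 0 osteocyte markers, beside 16.7% of all genes, and limma called 0 of either. The osteoblast markers had a median difference from the WT mean of 0.04, -0.38, 1.30 and 1.10 on the log2 scale in Dmp1KO/Fgf23cKO libraries 1 to 4, against -0.22 to 0.44 in the WT libraries. The osteocyte markers had 0.04, -0.40, 0.89 and 0.88 in the mutant libraries, against -0.19 to 0.46 in WT. Col1a1, the main collagen chain of bone, had 32340, 26070, 128800 and 93190 CPM in the mutant libraries, against 44640, 31670, 25130 and 33220 CPM in WT. Bglap, osteocalcin, had 192, 123, 1316 and 689 CPM in the mutant libraries, against 228, 89.8, 113 and 131 CPM in WT, although it shares sequence with its copies Bglap2 and Bglap3. Alpl, tissue-nonspecific alkaline phosphatase, had 971, 552, 1874 and 1679 CPM in the mutant libraries, against 1118, 618, 669 and 760.3 CPM in WT. Libraries 3 and 4 exceeded every WT library for these 3 genes, and libraries 1 and 2 overlapped the WT range or lay just below it. The transcription factors Sp7 and Runx2 showed smaller steps of the same kind. Sp7 had 170, 136, 414 and 345 CPM in the mutant libraries, against 268, 163, 168 and 196 CPM in WT. Runx2 had 137, 116, 263 and 230.2 CPM in the mutant libraries, against 203, 163, 142 and 157 CPM in WT. Their log2 fold changes over the 4 libraries were 0.42 ± 0.36 and 0.17 ± 0.26 (SE, adjusted p = 0.493 and 0.719).

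Several genes of mineralization and of the osteocyte stage were above WT in libraries 3 and 4. Phex, an endopeptidase whose loss raises FGF23, had 58.4, 46.3, 539.9 and 300.3 CPM in the Dmp1KO/Fgf23cKO libraries, against 103, 62, 34.3 and 72.4 CPM in the WT libraries. Phospho1, a phosphatase of matrix vesicles, had 166, 81.8, 838 and 613 CPM in the mutant libraries, against 237, 128, 108 and 165 CPM in WT, and Ptprz1, a receptor phosphatase, had 51.4, 48.3, 821 and 523 CPM in the mutant libraries, against 97.98, 53.5, 46.1 and 78.2 CPM in WT. These 3 genes exceeded every WT library in libraries 3 and 4 and lay within or below the WT range in libraries 1 and 2. Sost, which encodes the Wnt inhibitor sclerostin of mature osteocytes, had 0.0968, 0.0254, 80.8 and 12.5 CPM in the mutant libraries, against 2.99, 1.76, 1.48 and 1.196 CPM in WT. It was the most divided of the bone genes, under the WT range in libraries 1 and 2 and over it in 3 and 4. Mepe, an osteocyte phosphoglycoprotein, had 21.7, 24.9, 86.2 and 47.99 CPM in the mutant libraries, against 34.6, 35.9, 16.3 and 27.7 CPM in WT. Ibsp, bone sialoprotein, had 4842, 4307, 9246 and 7768 CPM in the mutant libraries, against 7720, 5358, 3992 and 5585 CPM in WT, and Spp1, osteopontin, had 5225, 9298, 3628 and 4187 CPM in the mutant libraries, against 6649, 7471, 6445 and 6749 CPM in WT. Spp1 ran opposite to the others, with its lowest levels in libraries 3 and 4. None of these 7 genes was called, with adjusted p between 0.144 and 0.684. Without mutant library 2 alone, Spp1 and Bglap passed. Among 15 phosphate and pyrophosphate genes, Mgp, the calcification inhibitor matrix Gla protein, had 166, 187, 15.97 and 32.9 CPM in the mutant libraries, against 76.6, 136, 151 and 113 CPM in WT, and Slc20a1, a sodium-phosphate cotransporter, had 150.2, 319, 46.6 and 66.4 CPM in the mutant libraries, against 115, 172, 147 and 151 CPM in WT.

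Targets of ATF4 and CHOP, the transcription factors of the integrated stress response, which reduces bulk translation and induces amino acid supply when cells face amino acid shortage or misfolded protein, had the largest median difference from WT in libraries 3 and 4 among the lists other than the targeted genes. Their median difference from the WT mean over 25 tested genes was 0.08, 0.05, 1.71 and 1.49 on the log2 scale in Dmp1KO/Fgf23cKO libraries 1 to 4, against -0.07 to 0.08 in WT. Of the 25 genes, 4 were higher in all 4 libraries (16%, beside 5.58% of all genes), none lower, and 9 belonged to the differing class, beside 4.38% of all genes. A total of 5 genes of the list have the core C/EBP-ATF response element in the promoter, and their sites are shown because most members lay above WT together in libraries 3 and 4. The element was searched as TGATGCAA on either strand, which reads TTGCATCA on the other, from 250 bases before to 50 after each annotated start. It was found in 5 of the 23 list members with a promoter sequence (21.7%) and in 279 of 27025 genes in all (1.03%). Because the list was made of ATF4 and CHOP targets, a higher share was built into its choice and is no result of these data. The sites, from RefSeq on GRCm38.p6 with the element in capitals, written 5′ to 3′ along the gene's strand, are these.
Atf3, chr1:191183414-191183465, minus strand: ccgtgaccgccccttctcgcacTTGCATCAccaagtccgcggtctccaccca
Chac1, chr2:119351027-119351078, plus strand: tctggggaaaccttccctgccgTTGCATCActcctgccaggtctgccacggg
Nupr1, chr7:126625551-126625602, minus strand: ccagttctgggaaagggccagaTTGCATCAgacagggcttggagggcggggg
Slc7a11, chr3:50443631-50443701, minus strand: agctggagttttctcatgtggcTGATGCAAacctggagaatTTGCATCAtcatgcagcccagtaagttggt
Fgf21, chr7:45615600-45615651, minus strand: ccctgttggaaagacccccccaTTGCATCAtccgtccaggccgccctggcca
A match is a description of these letters, not evidence of binding. Fgf21, a stress-induced hormone of the FGF family, did not pass the filter on low counts.

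The values of these genes were not alike. Chac1, a glutathione-degrading enzyme, had 5.16, 4.18, 70.5 and 45.7 CPM in the Dmp1KO/Fgf23cKO libraries, against 6.17, 3.68, 3.35 and 4.52 CPM in the WT libraries, and Nupr1, a stress-induced chromatin protein, had 187, 186, 444 and 385 CPM in the mutant libraries, against 183, 163, 115 and 162 CPM in WT. Atf3, a stress-induced transcription factor, had 27.7, 37.01, 65.7 and 62.7 CPM in the mutant libraries, against 21.9, 18.3, 19.7 and 18.3 CPM in WT, and was called (1.30 ± 0.27 SE, adjusted p = 0.0264). Slc7a11, the cystine-glutamate exchanger, whose promoter holds the element on both strands, was highest in library 2, with 63.9, 111, 45.9 and 45.1 CPM in the mutant libraries, against 41.7, 52.1, 40.2 and 43.5 CPM in WT. Trib3, a pseudokinase that binds ATF4, had 4.27, 3.81, 100.1 and 90.8 CPM in the mutant libraries, against 3.83, 3.86, 2.54 and 3.04 CPM in WT. Ddit3, which encodes CHOP, had 8.62, 9.23, 36.7 and 33.2 CPM in the mutant libraries, against 6.27, 5.76, 4.95 and 5.25 CPM in WT (1.98 ± 0.50 SE, adjusted p = 0.0494). Ddit3 was thus above WT in all 4 libraries, by a small margin in 1 and 2 and by a large one in 3 and 4, whereas Trib3 in libraries 1 and 2 stood within or just above the WT range. Ppp1r15a, the phosphatase subunit that ends the response, had 25.6, 24.8, 58.7 and 51.5 CPM in the mutant libraries, against 19.5, 18.6, 15.5 and 15.9 CPM in WT (1.21 ± 0.29 SE, adjusted p = 0.0453). The calls of Ddit3, Atf3, Ppp1r15a and Slc3a2, the heavy chain of amino acid transporters (0.43 ± 0.098 SE, adjusted p = 0.0358), were each lost without mutant library 3 or 4 or any 1 WT library, with adjusted p of at most 0.143. Enzymes of serine synthesis lay slightly below the WT range in libraries 1 and 2 and well above it in libraries 3 and 4. Phgdh had 14.7, 15.1, 85.8 and 68.5 CPM in the mutant libraries, against 22.1, 19.9, 19.6 and 21.8 CPM in WT, and Psat1 had 15.2, 14.2, 89.9 and 77.2 CPM in the mutant libraries, against 21.8, 21.8, 20.3 and 20.97 CPM in WT. The amino acid transporter Slc7a3 had 0.242, 0.368, 7.78 and 6.09 CPM in the mutant libraries, against 0.431, 0.3198, 0.262 and 0.299 CPM in WT. Trib3, Chac1 and Slc7a3 were not called over the 4 libraries (adjusted p = 0.0691, 0.0949 and 0.0936) but passed without mutant library 1 or 2.

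Aminoacyl-tRNA synthetases, which charge tRNAs for translation and of which several are ATF4 targets, had a median difference from the WT mean of 0.04, 0.10, 0.81 and 0.76 in Dmp1KO/Fgf23cKO libraries 1 to 4. Of 20 genes 3 were higher in all 4 libraries (15%, beside 5.58% of all genes). Rars had 67.9, 70.2, 87.2 and 82.5 CPM in the mutant libraries, against 45.7, 51.6, 50.1 and 44.8 CPM in WT (0.68 ± 0.096 SE, adjusted p = 0.00726), a call that held without any 1 library. Nars had 175, 187, 271 and 260.3 CPM in the mutant libraries, against 140.3, 156, 149 and 136 CPM in WT (0.62 ± 0.15 SE, adjusted p = 0.0437), and was lost without mutant library 3 or 4 or any 1 WT library (at most 0.138). Hars rose by 0.33 ± 0.057 (SE, adjusted p = 0.0148), and was lost without WT library 2 or 4 (at most 0.0669).

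Matrix genes were seldom called by edgeR. Of 23 adhesive matrix glycoproteins, 19 fibrillar collagens and partners, 11 small leucine-rich proteoglycans and 16 basement membrane genes, 1 was called, beside 7.56% of all genes. It was the basement membrane proteoglycan Hspg2 (perlecan), with 758, 736, 738 and 622 CPM in the Dmp1KO/Fgf23cKO libraries, against 981, 1020, 931 and 933 CPM in the WT libraries (fell by 0.44 ± 0.087 SE, adjusted p = 0.0233). That call was lost without mutant library 4 or any 1 WT library (at most 0.0773). DESeq2 called 5, 2, 2 and 2 genes of the 4 lists in the order given (21.7%, 10.5%, 18.2% and 12.5%), beside 16.7% of all genes. The same numbers of genes had an unadjusted p under 0.05, beside 25.9% of all genes, and limma called 0. The 4 lists held 6, 6, 2 and 2 differing genes (26.1%, 31.6%, 18.2% and 12.5%, beside 4.38% of all genes). The glycoproteins had a median difference from the WT mean of 0.09, -0.06, -1.47 and -0.99 in mutant libraries 1 to 4, and the fibrillar collagens and partners had 0.26, -0.24, -0.57 and -0.33. The proteoglycans, with 0.42, -0.60, -0.63 and -0.76, were about as low in library 2 as in library 3, and the basement membrane genes had -0.03, -0.13, -0.46 and -0.59. Fn1, fibronectin, had 8383, 12670, 3899 and 4292 CPM in the mutant libraries, against 10450, 15020, 12150 and 13050 CPM in WT (-0.79 ± 0.37 SE, adjusted p = 0.2195), and passed without mutant library 2 alone. Mfap5, a microfibril protein, had 67.6, 42.96, 6.64 and 15.4 CPM in the mutant libraries, against 29.1, 23.5, 35.8 and 35.4 CPM in WT. Lamb1, a laminin chain, had 229.5, 221, 51.9 and 67.9 CPM in the mutant libraries, against 211, 283, 258 and 225 CPM in WT. In each of these genes libraries 3 and 4 lay below every WT library and library 1 did not share that position except for Fn1. Collagens were not all low, and Col11a1, a regulator of fibril diameter, had 525, 393, 2322 and 1484 CPM in the mutant libraries, against 761, 510, 444 and 586 CPM in WT.

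Among stromal and contractile markers 1 gene was called. Of 15 stromal progenitor markers only Prrx1, a mesenchymal transcription factor, fell in all 4 libraries, beside 1.96% of all genes. It had 438, 384, 326 and 365 CPM in the mutant libraries, against 501, 497, 517 and 518 CPM in WT (fell by 0.43 ± 0.094 SE, adjusted p = 0.0333). The call was lost without mutant library 3 or 4 or any 1 WT library (at most 0.111). Vcam1, an adhesion molecule of marrow stroma, had 77.4, 46.6, 9.47 and 11.8 CPM in the mutant libraries, against 70.4, 66.9, 72.6 and 61.6 CPM in WT. Cxcl12, the chemokine that holds hematopoietic cells in marrow, had 514, 151, 68.98 and 62.4 CPM in the mutant libraries, against 409, 125, 418 and 309 CPM in WT, with WT library 2 below mutant library 2. Ly6a, the Sca-1 antigen, had 80.6, 64.9, 16.3 and 23.5 CPM in the mutant libraries, against 89.2, 56.3, 111 and 109 CPM in WT. The median difference of the stromal markers from the WT mean was 0.19, -0.36, -0.64 and -0.55 in mutant libraries 1 to 4, so that library 2 was also low, and that of the contractile genes was 0.30, 0.18, -1.04 and -0.86. The summed level of the stromal markers was 1796, 1293, 870.5 and 902.8 CPM in Dmp1KO/Fgf23cKO, against 1409 to 1768 CPM in WT. That of the 22 osteoblast markers was 70160, 62890, 233500 and 171700 CPM in the mutant libraries, against 58320 to 94970 CPM in WT. Of 10 contractile genes none was called by edgeR (1 had an unadjusted p under 0.05, or 10.0% beside 25.9% of all genes, and DESeq2 and limma called 0), and Tagln (transgelin) had 425, 526, 113 and 149 CPM in the mutant libraries, against 276, 479, 479 and 436 CPM in WT.

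None of 17 chemokine and NF-kB genes and of 5 genes that signal to osteoclasts was called by edgeR, beside 7.56% of all genes. At an unadjusted p under 0.05 there were 2 (11.8%) and 0, beside 25.9% of all genes. DESeq2 called 2 (11.8%) and 0, beside 16.7%, and limma called 0 of either, beside 2.0%. The 17 chemokine and NF-kB genes had a median difference from the WT mean of 0.84, 0.55, -0.89 and -0.78 in Dmp1KO/Fgf23cKO libraries 1 to 4, against -0.09 to 0.10 in WT. Ccl7, a monocyte chemokine, had 16.9, 10.9, 1.73 and 3.08 CPM in the mutant libraries, against 8.54, 8.95, 8.69 and 9.31 CPM in WT. Libraries 1 and 2 lay above and libraries 3 and 4 below every WT library. The 5 genes that signal to osteoclasts had median differences of 0.31, 0.32, -1.25 and -1.35. Tnfsf11, the osteoclast differentiation factor RANKL, had 2.32, 0.863, 0.387 and 0.035 CPM in the mutant libraries, against 1.06, 0.689, 1.12 and 1.01 CPM in WT, and Sema3a, a semaphorin that restrains osteoclasts, had 16.3, 21.9, 2.26 and 3.36 CPM in the mutant libraries, against 21.9, 40.3, 31.6 and 30.3 CPM in WT. Among 12 osteoclast markers only Atp6v0d2, a proton pump subunit, was called, higher in all 4 libraries (8.33%, beside 5.58% of all genes). It had 82.4, 53.5, 192 and 215 CPM in the mutant libraries, against 47.9, 32.5, 46.7 and 27.9 CPM in WT (1.81 ± 0.44 SE, adjusted p = 0.0466). The osteoclast phosphatase Acp5 had 169.8, 62.98, 15.2 and 19.3 CPM in the mutant libraries, against 131, 34.6, 106 and 29.2 CPM in WT. Acp5 was thus above WT in library 1 and below it in libraries 3 and 4, and the Atp6v0d2 call was lost without mutant library 3 or 4 or any 1 WT library (at most 0.141). F13a1, a coagulation factor subunit of macrophages, had 287, 381, 51.8 and 49.6 CPM in the mutant libraries, against 335, 378, 344 and 366 CPM in WT.

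**Figure D5:**
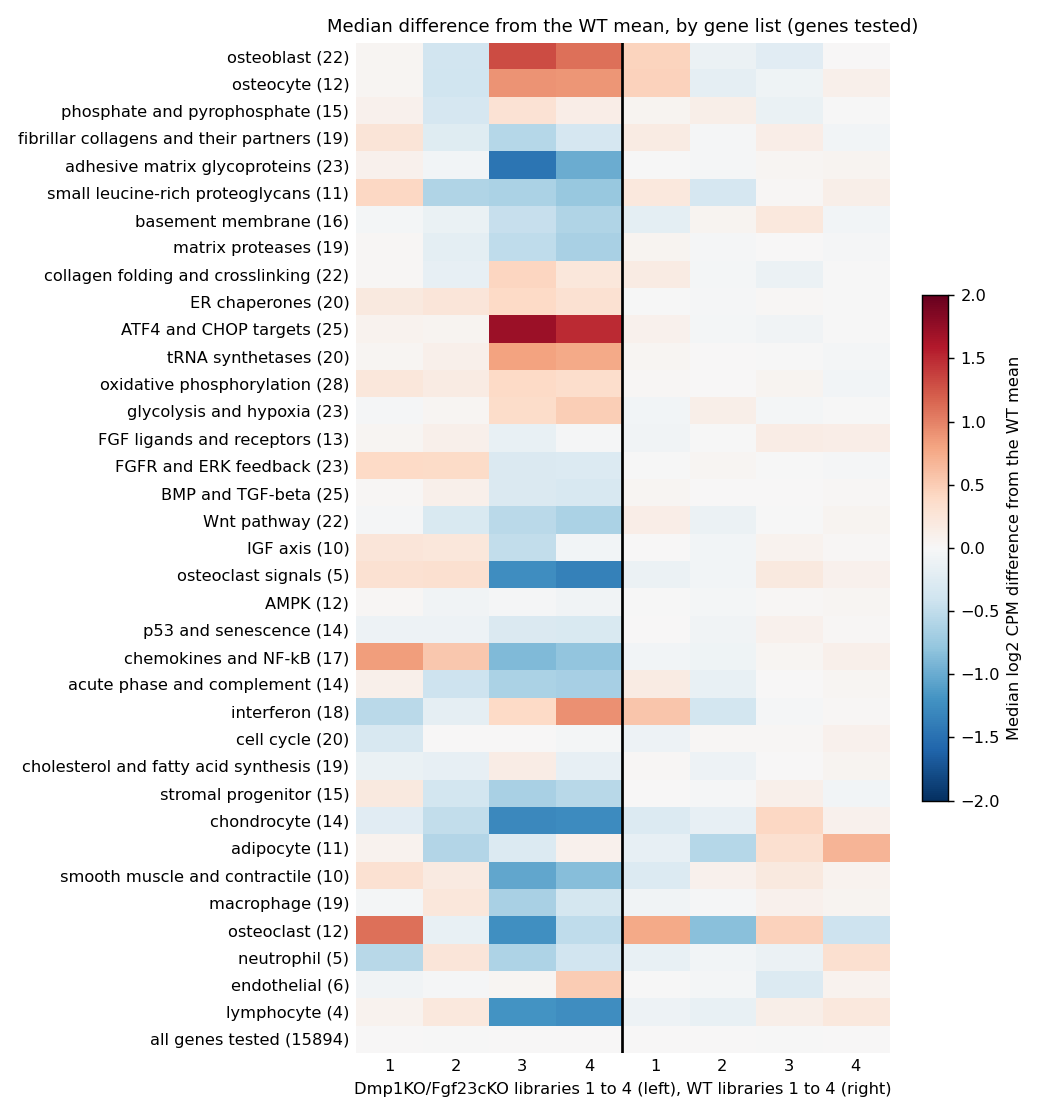
Median over the tested genes of each list (rows, number of genes in brackets) of the difference in log2 CPM from the WT mean (colour, red higher and blue lower, saturating at 2), by library (columns), Dmp1KO/Fgf23cKO 1 to 4 left of WT 1 to 4. ER chaperones and oxidative phosphorylation are slightly red in all 4 mutant columns, whereas ATF4 and CHOP targets, at 1.71 and 1.49 in columns 3 and 4, and most other lists are coloured chiefly in those columns.

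The lists of FGF signaling and growth factor pathways each held between 0 and 2 genes called by edgeR. None of 13 FGF ligands and receptors was called by edgeR, with 2 at an unadjusted p under 0.05 (15.4%, beside 25.9% of all genes), 1 called by DESeq2 and 0 by limma. Fgfr1, the main FGF receptor of osteoblasts, had 585, 514, 675 and 669 CPM in the Dmp1KO/Fgf23cKO libraries, against 628, 575, 551 and 558 CPM in the WT libraries (0.08 ± 0.10 SE, adjusted p = 0.6601), and Kl, the FGF23 co-receptor Klotho, stood under 1 CPM in all 8. Of 23 genes of FGF receptor and ERK feedback, 2 were higher in all 4 libraries (8.70%, beside 5.58% of all genes). Egr2, an early response transcription factor, had 18.4, 18.6, 22.9 and 23.96 CPM in the mutant libraries, against 11.8, 11.6, 11.7 and 10.4 CPM in WT (0.88 ± 0.11 SE, adjusted p = 0.00421). Myc had 53.9, 46.9, 60.2 and 67.9 CPM in the mutant libraries, against 37.8, 33.9, 35.9 and 36.6 CPM in WT (0.67 ± 0.11 SE, adjusted p = 0.0121), with 0.0515 without WT library 4. Dusp5, a nuclear ERK phosphatase, was above WT in libraries 1 and 2 and below it in libraries 3 and 4, with 8.99, 7.41, 0.938 and 1.44 CPM in the mutant libraries, against 1.87, 2.3, 1.86 and 1.56 CPM in WT. Igf2, a fetal growth factor, rose in all 4 libraries and differed among them, with 30.4, 14.4, 94.3 and 83.7 CPM in the mutant libraries, against 8.95, 6.297, 7.62 and 7.94 CPM in WT (2.85 ± 0.56 SE, adjusted p = 0.0227). Its call was lost without mutant library 4 or any 1 WT library (at most 0.0836). Of 25 BMP and TGF-beta genes the ligand Tgfb1 and the receptor Tgfbr1 rose (8% of the list, beside 5.58% of all genes). The rises were 0.36 ± 0.067 and 0.32 ± 0.072 (SE, adjusted p = 0.0184 and 0.0353). Each call was lost without any 1 WT library, Tgfbr1 also without mutant library 4 (at most 0.110). Of 22 Wnt genes only the scarce ligand Wnt16 passed (4.55%, beside 5.58% of all genes higher in all 4). It had 0.884, 1.05, 2.14 and 1.09 CPM in the mutant libraries, against 0.216, 0.221, 0.0239 and 0.338 CPM in WT (2.69 ± 0.63 SE, adjusted p = 0.0401). The call was lost without mutant library 3 or 4 or WT library 1, 2 or 4 (at most 0.106). At an unadjusted p under 0.05 there were 9 feedback genes (39.1%) and 8 Wnt genes (36.4%), beside 25.9% of all genes. There were 6 of 25 BMP and TGF-beta genes and 1 of 10 IGF axis genes, both lower shares than in all genes. DESeq2 called 5 feedback genes (21.7%) and 4 Wnt genes (18.2%), beside 16.7% of all genes. It called 3 BMP and TGF-beta genes and 1 IGF axis gene, again lower shares.

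Hypoxia and glycolysis genes held 2 of 23 called, both higher (8.70%, beside 5.58% of all genes). Vegfa, the angiogenic factor, had 141, 143, 263 and 195 CPM in the Dmp1KO/Fgf23cKO libraries, against 89.5, 91.4, 71.7 and 92.9 CPM in the WT libraries (1.10 ± 0.21 SE, adjusted p = 0.0193), and Slc2a1, the glucose transporter GLUT1, had 41.6, 66.2, 43.8 and 48.7 CPM in the mutant libraries, against 29.5, 38.1, 29.2 and 27.97 CPM in WT (0.68 ± 0.16 SE, adjusted p = 0.0425). Both were lost without mutant library 4 or any 1 WT library, and Slc2a1 also without mutant library 3 (at most 0.136). Gadd45a, a DNA damage-induced gene, had 6.802, 8.56, 13.9 and 16.2 CPM in the mutant libraries, against 2.76, 5.42, 3.33 and 2.99 CPM in WT (1.65 ± 0.33 SE, adjusted p = 0.0239), lost without mutant library 3 or 4 or WT library 1, 3 or 4 (at most 0.0932). Of 18 interferon genes Bst2, an antiviral membrane protein, was higher in all 4 (5.56%, beside 5.58% of all genes). It rose by 0.60 ± 0.11 (SE, adjusted p = 0.0179), and was lost without WT library 1, 2 or 4 (at most 0.0634). The chondrocyte and neutrophil lists, with 14 and 5 tested genes, had 1 lower gene each, beside 1.96% of all genes. These were the chondrocyte factor Sox5 (0.424, 0.508, 0.194 and 0.21 CPM in the mutant libraries, against 0.579, 1.27, 1.46 and 1.3 CPM in WT, adjusted p = 0.0447) and the neutrophil receptor Cxcr2 (7.07, 6.92, 6.77 and 7.998 CPM in the mutant libraries, against 9.43, 11.2, 8.96 and 12.6 CPM in WT, adjusted p = 0.0395). The call of Cxcr2 was lost without any 1 of the 8 libraries and that of Sox5 held only without mutant library 2. In all, 19 of the 39 lists had no called gene, among them AMPK, p53 and senescence, acute phase and complement, cholesterol and fatty acid synthesis, adipocyte, endothelial, lymphocyte, erythroid and skeletal muscle genes. Of their 223 distinct tested genes 40 had an unadjusted p under 0.05 (17.9%, beside 25.9% of all genes), 25 were called by DESeq2 (11.2%, beside 16.7%) and 0 by limma on the deposited log2 values (beside 2.0%). The filter on low counts removed 8 of 12 lymphocyte, 6 of 8 erythroid and 8 of 10 skeletal muscle markers, and 2 erythroid and 2 skeletal muscle markers were at 0 in all 8 libraries. All macrophage and osteoclast markers passed it. The 12 osteoclast markers summed to 874, 643, 615 and 677 CPM in the mutant libraries, against 469.7 to 687 CPM in WT. The 4 tested lymphocyte markers summed to 20.2, 17.8, 47.5 and 50.6 CPM in the mutant libraries, against 11.4 to 18.1 CPM in WT. Most of that sum in libraries 3 and 4 was Il7r, the interleukin 7 receptor, with 9.09, 12.1, 46.04 and 48.5 CPM in the mutant libraries, against 6.86, 7.465, 10.6 and 7.98 CPM in WT (adjusted p = 0.0833). The part of these cells in the other results was not tested.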

How the data were processed

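RNA was sequenced from cultured bone marrow stromal cells of 4 genotypes with 4 libraries each, as 50 bp paired reads of TruSeq Total RNA libraries on a NovaSeq instrument. The authors mapped and filtered the reads in StrandNGS against mm10 and deposited expected counts per gene, of which 33.4% of the values are not whole. The authors also deposited log2 values, scaled by DESeq size factors and centred on each gene's median over the 16 libraries. The sources used here do not give the StrandNGS version, its annotation or its strand setting, so reads of a gene and of an overlapping antisense gene cannot be told apart. Tables of the authors' own fold changes and p-values were not used.

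Here the expected counts of the 8 Dmp1KO/Fgf23cKO and WT libraries were rounded to whole numbers. They were filtered with filterByExpr (minimum count 10, minimum total 15), scaled by TMM and tested with the edgeR 4.0.16 quasi-likelihood F-test (robust) in R 4.3.3, with Benjamini-Hochberg adjustment over all 15894 genes. The SE of a log2 fold change was taken from the fold change and its F statistic. Library positions against WT used log2 CPM with a prior count of 2. The code was tested on simulated data. Alternatives were DESeq2 1.42.0, limma 3.58.1 on the deposited log2 values, DESeq2 size factors, no filter, all 16 libraries in 1 fit, other thresholds and leaving out each library. Depth was 61.9 M to 79.5 M counts per library.

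Groups were taken from the genotype labels. Named genes were the targeted genes, the 12 largest changes in each direction and the 8 smallest adjusted p among genes that moved in all 4 libraries, and the 16 widest ranges among differing genes, each with a mean of at least 5 CPM, with predicted, ribosomal protein and pseudogenes left out. To these came up to 3 members per list that moved in all 4, up to 2 that differed, and a fixed set of bone and FGF genes. The members, lists and tests were chosen with earlier results of these data known. Ndufs1, Ndufs8, Uqcrc2, Atp5a1, Nupr1, Slc7a11, Phgdh, Psat1, Acp5, Apobec1, Cd1d2, Prr32 and Gm1045 were named after their values were seen. Gene positions were matched by Entrez ID for 44528 of 45796 rows, and 26 symbols stored as dates were repaired. A gene that met the rule is not reported here.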

Additional observations from a re-analysis of the deposited data

Results flagged for a closer look

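Among the named genes, 8 of 264 groups of 4 libraries held 1 library far from the other 3, with a gap to the nearest of them above Dixon's 95% critical value, and chance gives such a gap in about 1 group in 20. In Dmp1KO/Fgf23cKO, library 4 was lowest for Hspg2, at 622.1 CPM, and library 1 was lowest for Hspa5, at 602.7 CPM. The fall of Hspg2 rests in part on that library, whereas the rise of Hspa5 is smallest in it. In WT, library 3 was lowest for Vegfa, at 71.7 CPM, and library 4 for Egr2, at 10.4 CPM, and for the Wnt antagonist Sfrp2, at 11.9 CPM. WT library 1 was highest for the interferon-induced gene Ifi44, at 5.82 CPM, and lowest for Sox5, at 0.579 CPM, and Tagln, at 276.1 CPM.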

How the results depend on the processing

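No paired analysis was possible because the labels give no replicate numbers that tie libraries of different genotypes, and the numbers used here follow accession order. The 1201 calls became 2652 with DESeq2, 318 with limma and 1864 with all 16 libraries in 1 fit, and between 305 and 1860 on leaving out 1 library. The 888 higher genes became 1616 with DESeq2 and 234 with limma, and between 252 and 1242 on leaving out 1 library. The 313 lower genes became 1036 with DESeq2, 84 with limma and 596 with all 16 libraries, and between 53 and 618 on leaving out 1 library. The 1199 genes that moved in all 4 libraries became 2288 with DESeq2 and 318 with limma, and between 305 and 1845 on leaving out 1 library. DESeq2 size factors gave 1157 calls and no filter gave 961. The 696 differing genes became 224 with a minimum range of 3 on the log2 scale and 1677 with no limit on the WT range, and between 440 (without mutant library 3) and 1068 (without WT library 2) on leaving out 1 library. Of the genes at least 2-fold beyond WT in all 4 libraries, 16 higher became 3 and 6 lower became 1 at a distance of 2 on the log2 scale, and the lower became 11 with a mean of at least 1 CPM. Leaving out mutant libraries 3 and 4 was chosen after seeing the data. Among named genes called with or without these libraries, it turned the log2 fold change of 5. The new values were -1.49 for Gpr141, -1.05 for Extl1, 0.63 for Fosl1, 0.64 for Ccl7 and -4.88 for Sost. Named genes called in neither setting could turn as well and were not counted. The causes of these changes were not tested. For the named genes, the call status was the same in 1584 gene and setting pairs, and the call was lost in 218 and gained in 41. A change of direction in a gene called in neither setting was counted among the 1584, so that number does not show that directions held. Of the 696 genes that differed among the mutant libraries 6 were called over all 4. Fgf23, at 2 to 8 reads in the mutant libraries, is limited by depth.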
